A study of Zea mays with 15 samples.

Results

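Transcripts of 4 maize genes of the early secretory pathway, copz2, cop2, DER1.1 and crt2, were followed in the growing zone of an internode before a spray and after ethephon or water. The array annotation paired 5 probe sets with them, 1 each with copz2 (gene ID 541628), cop2 (541811) and DER1.1 (100037763) and 2 with crt2 (542732). They are 4 of 1108 annotated genes and 5 of 17621 probe sets. The genes were selected on their signals in 1 comparison, in which coatomer and Derlin genes were lower at 24 h after water than before the spray, so the values of that comparison are a description and are given without a test. All other comparisons with the untreated arrays share those arrays with it and are described in the same way for these genes.

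The tissue was meristem from the seventh internode of maize seedlings grown in a greenhouse, which were at the jointing stage and had 8 leaves at the spray. Untreated seedlings were collected at 0 h, and seedlings sprayed with ethephon (600 mg/L), which breaks down to the hormone ethylene inside plants, or with water were collected at 24 h and at 48 h. Each of the 5 groups had 3 arrays, 15 in all, and each RNA was pooled from 3 seedlings. The labels give no line or cultivar, and the arrays hold no unsprayed plants collected at 24 or 48 h, so spraying and time cannot be told apart in a comparison with 0 h.

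Proteins for the cell surface, the vacuole and the wall are made at the endoplasmic reticulum, folded there and sent on to the Golgi in vesicles. The coatomer coats COPI vesicles, which return proteins from the Golgi to the endoplasmic reticulum and move them within the Golgi. Calreticulin is a calcium-binding lectin chaperone that holds newly made glycoproteins until they are folded, and Derlins are membrane proteins through which misfolded proteins leave for degradation. Growing plant tissue uses this pathway for wall polysaccharides and membrane.

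Array medians ran from 297.8 to 370.4. RNA quality was followed by a 3'/5' index, computed on 5 control transcripts as log2 of the signal near the 3' end over that near the 5' end. It was 2.01, 0.743 and 2.17 on the untreated arrays, 2.86, 3.16 and 2.99 (ethephon) and 3.03, 2.51 and 3.09 (water) at 24 h, and 2.72, 2.66 and 2.83 (ethephon) and 2.15, 1.62 and 2.38 (water) at 48 h. The ethephon arrays and the 24 h water arrays all had a higher index than any untreated array, and untreated replicate 2 had the lowest index of all. Both measured shoot meristem markers, kn1 and lg3, lay above the filter on low signals, which kept the upper 60% of probe sets (mean signal at least 218.3), as did 4 of 7 markers of dividing cells, 3 of 5 of leaf photosynthetic cells, 4 of 4 of vascular and secondary wall tissue and 3 of 7 of endosperm. The lowest signal on any array was 1, so no marker could read 0. The endosperm markers were chosen as ones that should be absent. Of these FL2 lay near that floor, with group means of 1.93 to 4.97 by its stronger probe set. Those above the filter were gz27 with group means of 466 to 808, ae1 with 393 to 495 and bt2 with 209 to 445, each by its strongest probe set. The name ae1 stood for more than 1 of the 7 endosperm entries. The sums of the vascular markers were the most variable, with 723 to 6964 in untreated arrays, 834 to 21984 with ethephon and 682 to 1363 with water at 24 h, and 1358 to 16158 with ethephon and 2507 to 5933 with water at 48 h. The sums of the leaf markers were 8939 to 17539 in untreated arrays and 6909 to 13359 over the sprayed arrays. Of the 3 above the filter, psbs1 stood at 43.8% to 47.4% of its untreated mean over the sprayed groups. The others stood at 80.8% to 96.3% (ssu1) and 76.2% to 127% (Ppdk1, strongest probe set). The meristem markers stood at 113% to 132% (kn1) and 80.3% to 127% (lg3). The part of tissue makeup in the results was not tested, and in bulk tissue fewer cells of a type and less RNA per cell cannot be told apart.

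The coatomer genes stood lower after either spray. The signal of copz2, which encodes a zeta subunit of the coatomer, was 5252, 5690 and 4865 on the untreated arrays, 3896, 3319 and 3492 at 24 h and 3676, 3557 and 3140 at 48 h after ethephon, and 2780, 3330 and 4111 at 24 h and 3856, 3763 and 4198 at 48 h after water. Every sprayed array lay below every untreated array, with 2780 to 4198 against 4865 to 5690. In group means copz2 stood at 67.7% of the untreated mean with ethephon and 64.7% with water at 24 h, and at 65.6% with ethephon and 74.8% with water at 48 h. The log2 differences from untreated were -0.56 and -0.64 at 24 h and -0.61 and -0.42 at 48 h, with ethephon first in each pair and a limma standard error of 0.14 throughout.

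The other coatomer gene of the choice, cop2, likewise stood lower in all 4 sprayed groups. Its signal was 6310, 7869 and 6438 on the untreated arrays, 5065, 5071 and 4832 at 24 h and 4525, 5382 and 4297 at 48 h after ethephon, and 4093, 3800 and 5496 at 24 h and 4457, 4883 and 5143 at 48 h after water. Again the sprayed arrays, with 3800 to 5496, did not overlap the untreated ones, with 6310 to 7869. The group means were 72.6% of untreated with ethephon and 64.9% with water at 24 h, and 68.9% with ethephon and 70.2% with water at 48 h. The widest spread was that of water at 24 h (4463 ± 907, SD, n = 3), where replicate 3 lay highest, as it did for copz2 (3407 ± 669).

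DER1.1, a Derlin gene of endoplasmic reticulum-associated degradation, also stood lower after either spray. Its signal was 1671, 1691 and 1922 on the untreated arrays, 1400, 1198 and 1296 at 24 h and 1321, 1313 and 1138 at 48 h after ethephon, and 1148, 1189 and 1087 at 24 h and 1298, 1321 and 1206 at 48 h after water. All sprayed arrays, 1087 to 1400, lay below the untreated arrays, and the 24 h water arrays were the lowest as a group. In group means DER1.1 stood at 73.7% of untreated with ethephon and 64.8% with water at 24 h, and at 71.4% with ethephon and 72.4% with water at 48 h. Its log2 differences from untreated were -0.44 for ethephon and -0.62 for water at 24 h, and -0.49 for ethephon and -0.46 for water at 48 h (SE 0.13).

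The calreticulin gene crt2 did not share this pattern. The stronger of its probe sets read 6284, 6768 and 6881 on the untreated arrays, 5882, 5982 and 5158 at 24 h and 4227, 5892 and 6250 at 48 h after ethephon, and 5233, 7235 and 7903 at 24 h and 6069, 5457 and 6018 at 48 h after water. Of the 12 sprayed arrays 10 lay below the lowest untreated array, while water replicates 2 and 3 at 24 h lay above the highest. In group means crt2 stood at 85.4% of untreated with ethephon and 102% with water at 24 h, and at 82.1% with ethephon and 88.0% with water at 48 h. The log2 differences from untreated were -0.23 and 0.01 at 24 h and -0.30 and -0.18 at 48 h, ethephon before water. The second probe set gave 79.6% and 99.7% at 24 h and 72.0% and 77.7% at 48 h in the same order, and again 10 of 12 sprayed arrays lay below the lowest untreated one. Its log2 signal correlated with that of the first at r = 0.93 over the 15 arrays.

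**Figure D1:**
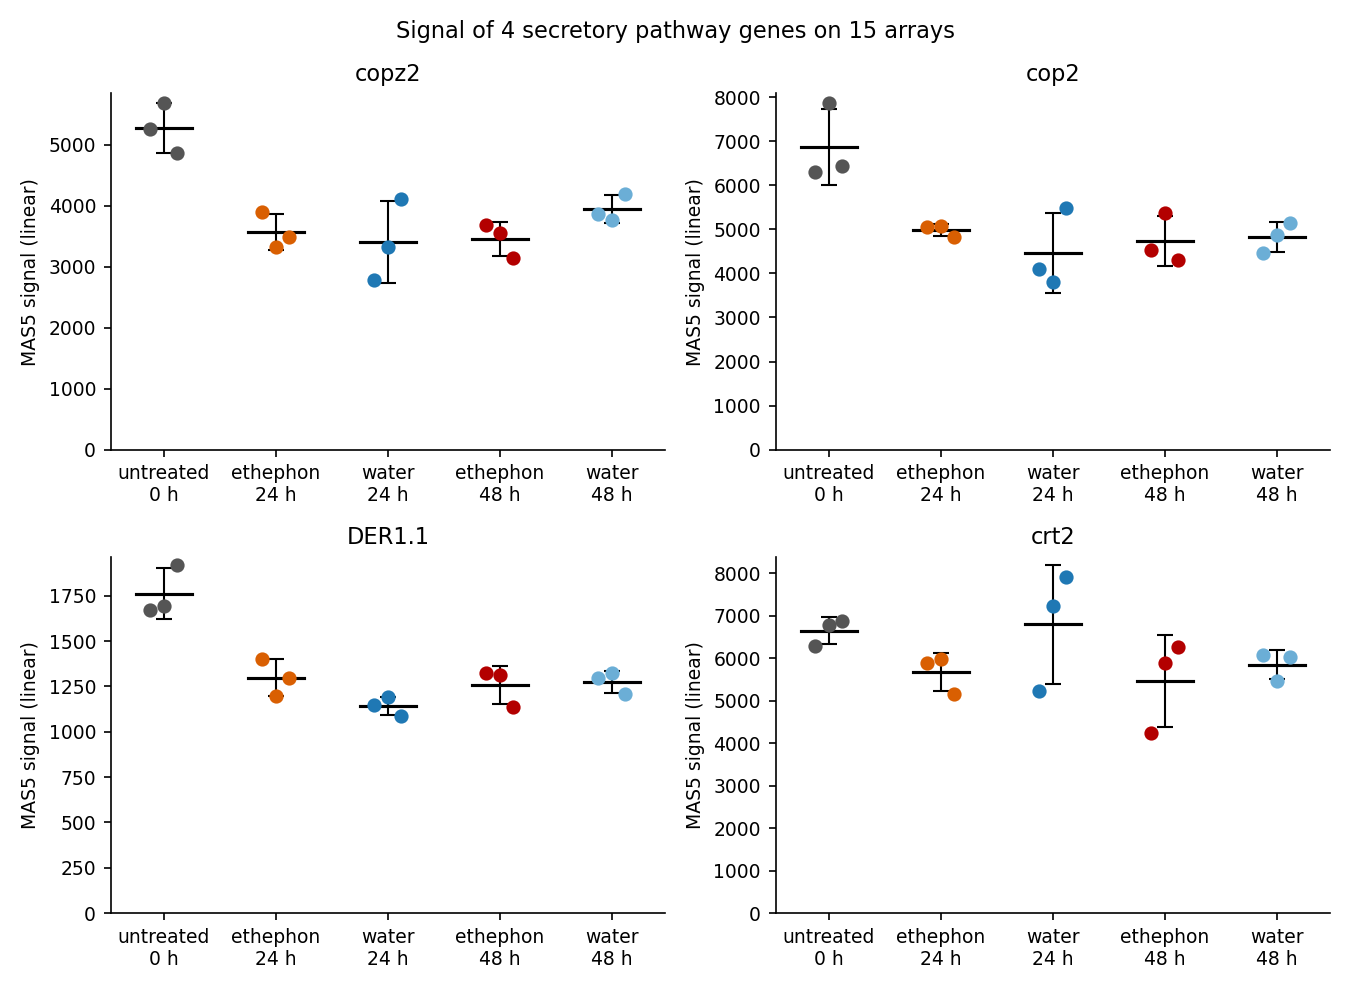
Signal of copz2, cop2, DER1.1 and crt2 (first probe set) on the 15 arrays. Points are arrays, horizontal lines group means and bars SD (n = 3), on a linear axis from 0; groups run in time from untreated 0 h. For copz2, cop2 and DER1.1 the 12 sprayed arrays lie below the 3 untreated ones, and for crt2 they do not.

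The shared feature of copz2, cop2 and DER1.1 was thus that all 12 sprayed arrays lay below all 3 untreated arrays, in 3 of the 4 genes. Among all 10573 probe sets kept by the filter, all 5 of the genes' probe sets included, 2.34% (247) had this order and 2.39% had the opposite one. Among the 762 named genes above the filter, each by its strongest probe set, 2.89% (22) had it, these 3 genes included. The choice of the genes already fixed the order of the 24 h water arrays. Among the 1161 probe sets whose 24 h water arrays all lay below the untreated ones 21.3% had it in full, and of the 89 that limma called lower at 24 h after water 83.1% had it, so most probe sets chosen in that way also stood lower in the other sprayed groups. Arrays that all lay below the untreated ones made up 11% of probe sets for water at 24 h, 13.6% for ethephon at 24 h, 8.85% for ethephon at 48 h and 6.62% for water at 48 h. Against untreated replicates 1 and 3 alone, a comparison added after the data were seen, 3.45% of probe sets and the same 3 genes had the order.

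The threshold of the choice lay close to these genes. Among named genes that were lower at 24 h after water, DER1.1, copz2 and cop2 ranked 4, 5 and 6 by p and were the last within the threshold. This rank describes the choice itself and is no test of these genes. Their log2 differences were -0.62, -0.64 and -0.63. Ahead of them lay the chaperone gene hsp101 (-2.25), rcalm (-0.71) and the D-type cyclin gene cycD2 (-0.69). Just outside the threshold lay eif5a (-0.32) and tif5A (-0.47), genes of the translation factor 5A. Over all probe sets limma called 89 lower in that comparison (0.842%).

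Ethephon and water were then set against each other at the same time, which asks whether the ethephon spray changed these genes beyond what the water-sprayed plants showed. At 48 h, on arrays that the choice of genes did not use, no difference passed limma's test with Benjamini-Hochberg adjustment over all kept probe sets (0% of all probe sets passed, 343 had an unadjusted p under 0.05). The ethephon arrays of copz2 all lay below the water arrays (3457 ± 281 against 3939 ± 229, SD, n = 3 each), an order that 3.9% of all probe sets shared. Its log2 difference was -0.19 with a 95% interval from -0.50 to 0.12 (adjusted p = 0.994). For cop2 the difference was -0.03 (interval -0.35 to 0.28), for DER1.1 -0.02 (-0.30 to 0.25) and for crt2 -0.12 (-0.48 to 0.24). Their adjusted p by limma were 0.998, 0.998 and 0.994. For copz2 and crt2 the interval reached the size of the difference between water at 48 h and untreated (-0.42 and -0.18 in this order).

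At 24 h the comparison of ethephon with water shares its water arrays with the choice of genes, and that choice favours higher values with ethephon. DER1.1 read 1298 ± 101 with ethephon and 1141 ± 51.6 with water, without overlap, an order that 7.05% of all probe sets shared (log2 difference 0.18, 95% interval -0.09 to 0.46, limma adjusted p = 0.587). The cop2 means were 4989 ± 137 with ethephon and 4463 ± 907 with water (0.18, -0.14 to 0.49, limma adjusted p = 0.630). For copz2 they were 3569 ± 296 and 3407 ± 669, ethephon before water (0.08, -0.22 to 0.39, limma adjusted p = 0.815). The calreticulin gene lay the other way, with 5674 ± 450 with ethephon and 6791 ± 1389 with water (-0.24, -0.60 to 0.12, limma adjusted p = 0.587), and its arrays overlapped. Limma called 0% of all probe sets at 24 h, while 951 had an unadjusted p under 0.05.

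The direction of the smaller differences rested on single arrays. Without water replicate 1 the 24 h difference of copz2 was -0.06. At 48 h that of cop2 was 0.03 without ethephon replicate 3 and 0.01 without water replicate 3, and that of DER1.1 was 0.05 without ethephon replicate 3 and 0.00389 without water replicate 2. For crt2 it was 0.06 without ethephon replicate 1, the array on which its signal was lowest.

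**Figure D2:**
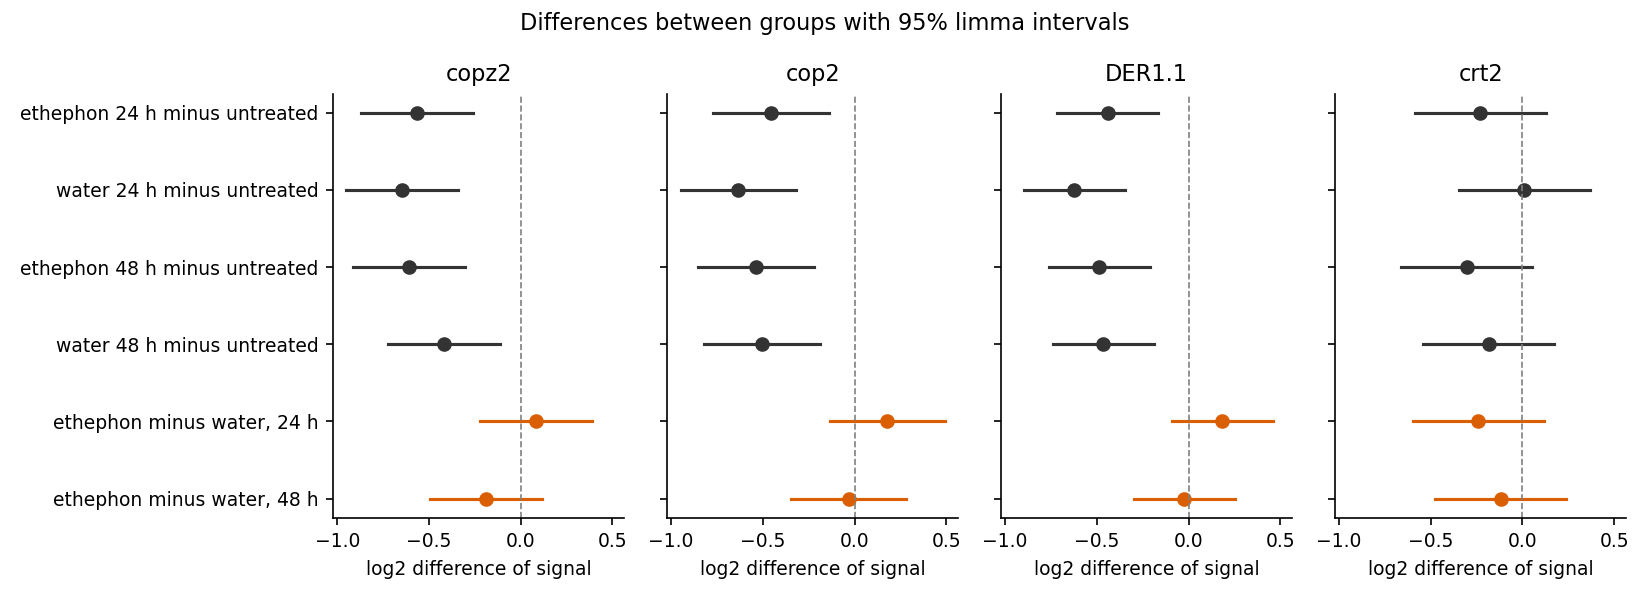
Log2 differences of signal (points) with 95% limma intervals (lines) for each gene. Black marks compare a sprayed group with untreated 0 h and are a description only, and orange marks compare ethephon with water. The black points of copz2, cop2 and DER1.1 lie between -0.64 and -0.42, and the orange intervals include 0 in every gene.

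The later arrays stood near the earlier ones. From 24 h to 48 h of ethephon, on arrays outside the choice, the log2 differences (48 h minus 24 h) were -0.05 for copz2 (95% interval -0.35 to 0.26), -0.08 for cop2 (-0.40 to 0.23), -0.05 for DER1.1 (-0.32 to 0.23) and -0.07 for crt2 (-0.43 to 0.28). None passed (limma adjusted p = 0.988 to 0.995, 0% of all probe sets passed). In the water groups the 24 h arrays are those of the choice. There the differences were 0.23 for copz2, 0.13 for cop2 and 0.16 for DER1.1, whose 48 h arrays all lay above its 24 h arrays as those of 4.97% of all probe sets did, and -0.20 for crt2. None of these passed (limma adjusted p = 0.999 each). The ethephon-minus-water difference changed between the times (48 h minus 24 h) by -0.27 in copz2, -0.21 in cop2, -0.21 in DER1.1 and 0.12 in crt2, which limma did not call either (adjusted p = 1.00 each). Without ethephon replicate 3 of 48 h the ethephon change of copz2 was 0.02 and that of DER1.1 0.02, and without ethephon replicate 1 of 24 h they were 0.02 and 0.00932. That of crt2 was 0.10 without ethephon replicate 1 of 48 h.

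The order of the groups could thus be read for 3 genes only as untreated above all others. Between neighbouring sprayed groups the arrays overlapped, apart from the orders named for DER1.1 at 24 h and for copz2 at 48 h and that of DER1.1 between the water groups. For crt2 the group means ran from water at 24 h (6791) and untreated (6644) through water at 48 h (5848) and ethephon at 24 h (5674) to ethephon at 48 h (5456), and of its sprayed groups only water at 24 h had arrays that overlapped the untreated ones.

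RNA quality moved with the groups, and its values stand beside the result. The array with the lowest index among the sprayed ones, water replicate 2 at 48 h, had an index of 1.62, below the 2.01 and 2.17 of untreated replicates 1 and 3. On it copz2 read 3763, cop2 4883 and DER1.1 1321, below the untreated values of replicates 1 and 3 in each gene. With the index as a covariate the differences from untreated were, for ethephon and water in this order, -0.46 and -0.55 at 24 h and -0.53 and -0.39 at 48 h in copz2. In cop2 they were -0.34 and -0.53 at 24 h and -0.44 and -0.47 at 48 h, and in DER1.1 -0.41 and -0.59 at 24 h and -0.46 and -0.45 at 48 h. The SE of these 12 estimates was 0.14 to 0.24, against 0.13 to 0.15 without the index. With the index limma called 0 probe sets in place of 586 at 24 h after ethephon and 13 in place of 182 at 24 h after water. The part of RNA quality in the result was not tested. Without untreated replicate 2 the range over the 3 genes and 4 sprayed groups was -0.65 to -0.35.

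**Figure D3:**
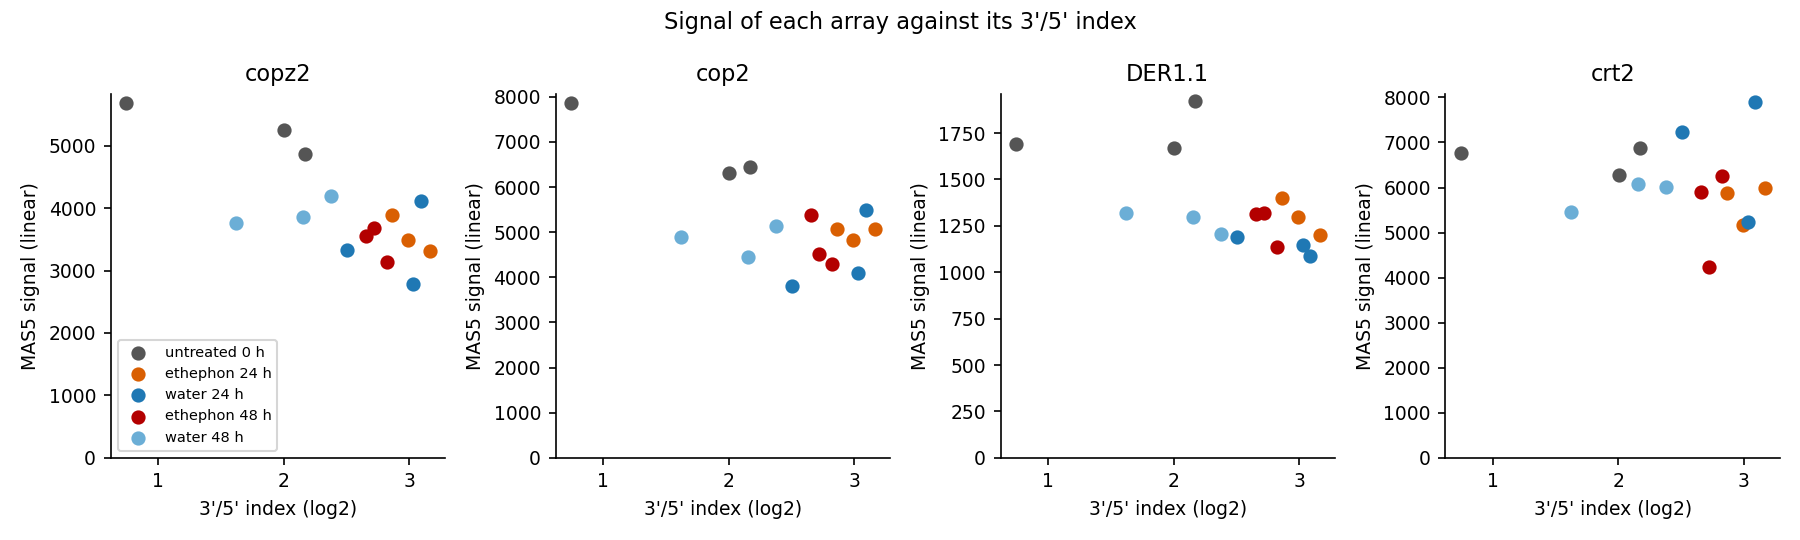
Signal of each gene (linear, from 0) against the 3'/5' index (log2) on each of the 15 arrays, coloured by group. Untreated arrays lie above the sprayed arrays for copz2, cop2 and DER1.1, also above the 48 h water array whose index of 1.62 is below those of 2 untreated arrays. For crt2 10 of the 12 sprayed arrays lie below the untreated ones, and water replicates 2 and 3 at 24 h lie above them.

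Of the rest of the pathway 21 genes were measured and 20 passed the filter on low signals, all but SRP9, of the signal recognition particle. None of the 20 had all 12 sprayed arrays below the untreated ones by the probe set that stood for the gene, an order that 2.34% of all kept probe sets had. PDIL1-1 had all 12 above the untreated ones by that probe set, an order that 2.39% of all kept probe sets had. At 24 h after water 0 of 20 passed limma against untreated, in either direction, with 3 at an unadjusted p under 0.05, where 1.72% of all probe sets passed. Their median log2 difference at that time was -0.05, with 9 higher and 11 lower, against 0.05 over all kept probe sets. At 48 h after water it was also 0 of 20, with 2 at an unadjusted p under 0.05 and 0.794% of all probe sets called. The medians in the other groups were -0.03 for ethephon at 24 h, -0.13 for ethephon at 48 h and 0.02 for water at 48 h, against 0.02, 0.06 and 0.03 over all probe sets. The fit of ethephon against water gave 0 of 20 called at 24 h and at 48 h, with medians of -0.06 and -0.03.

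The paralog copz1, which encodes the other zeta subunit measured, stood at 80.5% of its untreated mean with ethephon and 87.8% with water at 24 h, and at 84.4% with ethephon and 82.2% with water at 48 h. It read 2752, 3052 and 2881 on the untreated arrays, 2356, 2389 and 2245 at 24 h and 2621, 2786 and 1920 at 48 h after ethephon, and 3010, 2024 and 2592 at 24 h and 2000, 2559 and 2580 at 48 h after water. Its 24 h water arrays thus overlapped the untreated ones. The log2 differences from untreated were -0.31 with ethephon and -0.21 with water at 24 h, and -0.26 with ethephon and -0.29 with water at 48 h (SE 0.18), and none passed limma (adjusted p = 0.315, 0.538, 0.478 and 0.648 in this order).

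The genes yptm2 and yptm3 of Rab-type GTPases, which guide vesicles to their target membrane, lay lower without passing. The yptm2 signal was 3549, 5058 and 3831 on the untreated arrays, 2316, 2335 and 2582 at 24 h and 3093, 2635 and 2005 at 48 h after ethephon, and 1742, 2375 and 2849 at 24 h and 2759, 2521 and 3724 at 48 h after water. Of its 12 sprayed arrays 11 lay below the lowest untreated array, all but water replicate 3 at 48 h. Its log2 differences from untreated were -0.77 with ethephon (limma adjusted p = 0.0624) and -0.85 with water (0.0782) at 24 h, and -0.69 with ethephon (0.146) and -0.47 with water (0.515) at 48 h. A second yptm2 probe set lay in the same direction in all 4 groups and passed at 24 h after ethephon (-1.07, limma adjusted p = 0.0337), a comparison in which limma called 5.54% of all probe sets. Array weights also gave a call there for the first probe set (-0.68, limma adjusted p = 0.0195). The gene yptm3 stood at -0.23 and -0.30 at 24 h and -0.44 and -0.28 at 48 h, ethephon before water, and did not pass.

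Among the degradation genes neither Derlin DER2.1 nor DER2.2 had all 12 sprayed arrays below the untreated ones. At 24 h after water the DER2.1 arrays did all lie below them, an order that 11% of all probe sets had. DER2.1 read 567, 1153 and 638 on the untreated arrays, 452, 534 and 714 at 24 h and 760, 519 and 492 at 48 h after ethephon, and 489, 470 and 492 at 24 h and 477, 590 and 597 at 48 h after water. Its untreated mean rested on replicate 2, the array with the lowest index. Its log2 difference at 24 h after water was -0.63 (limma adjusted p = 0.233), -0.31 without that array and -0.06 with the index as a covariate. The stronger DER2.2 probe set lay at 0.19 at 24 h after water and the weaker one at -0.56, so the direction of DER2.2 was not settled. The 24 h water arrays of the weaker one (447 to 576) all lay below its untreated ones (595 to 1106), while those of the stronger one overlapped. The ubiquitin-conjugating enzyme gene ubc7 lay above untreated at 24 h by 0.38 with ethephon and 0.21 with water by its strongest probe set, which did not pass, while 2 of its other probe sets were called higher with ethephon (0.60 and 0.95, limma adjusted p = 0.0188 and 0.0219 in this order) and a further one lay below untreated (-0.15). The strongest one did pass at 24 h after ethephon under quantile normalization (0.49, limma adjusted p = 0.0458) and with array weights (0.41, limma adjusted p = 0.0481). The ubc7 probe sets under the filter on low signals were left out of the main fit. Their means at 24 h after ethephon were 29.3% and 87.4% of untreated. The former had all 12 sprayed arrays (18.8 to 58.1) below the untreated ones (68.05 to 114). A ubc7 probe set above the filter had the opposite order, with 261 to 500 on sprayed and 234 to 256 on untreated arrays. That order was shared by 2.39% of all kept probe sets.

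Of the folding genes 1 was called by the probe set that stood for it. PDIL1-1, a protein disulfide isomerase gene, was higher at 48 h after ethephon (5147, 3811 and 4916 with ethephon against 2526, 3124 and 2904 untreated, log2 0.69 ± 0.13, 1.61-fold, limma adjusted p = 0.0248). Limma called 1.36% of all probe sets in that comparison. The call did not hold with the replicate block (adjusted p = 0.0624), with the index (0.282), with the arrays of those groups alone (0.221) or without ethephon replicate 1 or 3 or untreated replicate 1 (adjusted p = 0.0966, 0.102 and 0.0958 in this order), while the difference stayed between 0.61 and 0.82. All 12 sprayed arrays of PDIL1-1 (3220 to 5147) lay above its untreated ones (2526 to 3124). At 48 h after water PDIL1-1 was 0.55 above untreated (limma adjusted p = 0.0975). With array weights it was called there (0.66, limma adjusted p = 0.0149) and at 24 h after ethephon (0.53, limma adjusted p = 0.0124). The stronger probe set of PDIL2-2 lay at -0.11 with ethephon at 24 h, while its other one was called lower there (-0.92, limma adjusted p = 0.0365). In the same comparison a weaker probe set of PDIL5-3 was called higher (0.61, limma adjusted p = 0.0230) and one of PDIL5-4 lower (-1.31, limma adjusted p = 0.0250), while the strongest probe set of neither gene passed. CNX, the calnexin gene, the membrane-bound counterpart of calreticulin, lay at -0.21 with ethephon and -0.04 with water at 24 h (limma adjusted p = 0.474 and 0.913 in this order).

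**Figure D4:**
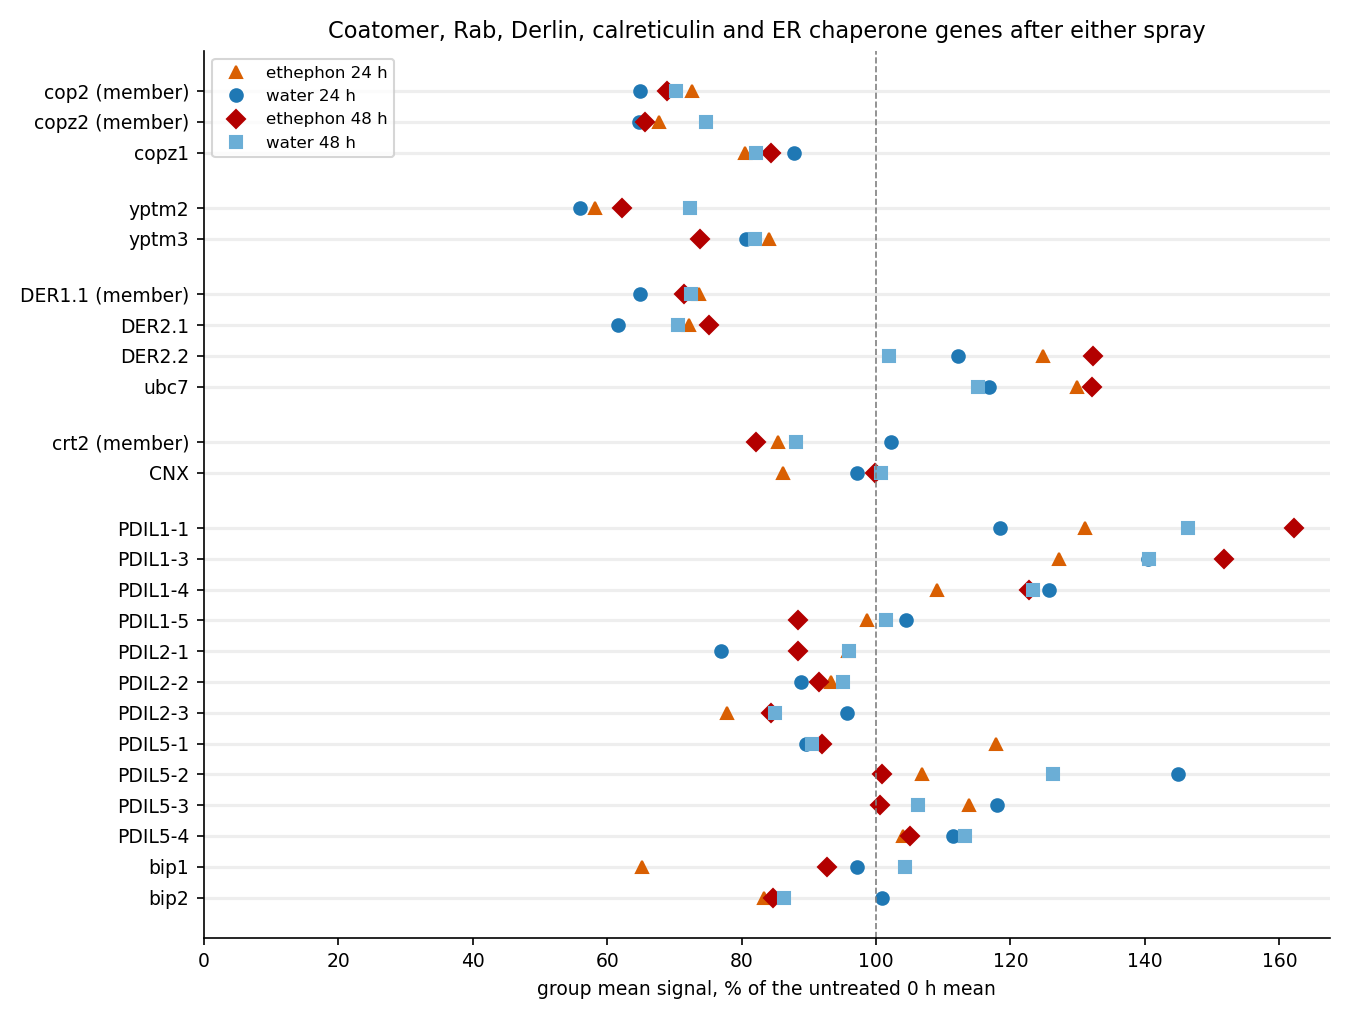
Group mean signal after each spray as a percentage of the untreated 0 h mean, for the 4 genes (marked as members) and the 20 other pathway genes above the filter, each by its strongest probe set. The dashed line is 100%. The marks of copz2, cop2 and DER1.1 lie between 64.7% and 74.8%, while those of the folding genes lie on both sides of 100%.

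The 4 genes were also compared with each other over the arrays. Over the 15 arrays the log2 signals of copz2 and cop2 correlated at r = 0.89, copz2 and DER1.1 at 0.78, and cop2 and DER1.1 at 0.75. These points share the difference between untreated and sprayed arrays for which the genes were picked. Over the 12 sprayed arrays alone the values were 0.64, 0.31 and 0.18. The crt2 probe set correlated with these genes at 0.10 to 0.38 over 15 arrays, and over the 12 sprayed arrays at 0.21 with copz2, 0.11 with cop2 and -0.56 with DER1.1.

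The genes most like each of the 4 were looked up by correlation of log2 signal over the 15 arrays among 761 other named genes, as a description. For copz2 they were yptm2 (r = 0.92, and 0.85 over the 12 sprayed arrays), the profilin gene PRO4 (0.89 and 0.78) and LOC541810 (0.89 and 0.82). For cop2 they were copz2, arf1 (0.84 and 0.69) and the plasma membrane aquaporin gene PIP2-1 (0.83 and 0.48). For DER1.1 they were eif5a (0.84 and 0.54), tif5A (0.84 and 0.58) and lls1 (0.82 and 0.05), so the likeness to lls1 lay in the untreated arrays. For crt2 they were the BiP chaperone gene bip2 (0.89 and 0.90), the disulfide isomerase gene PDIL2-3 (0.85 and 0.85) and por1 (0.76 and 0.78). All 12 sprayed arrays lay below the untreated ones also for PIP2-1, eif5a, tif5A and lls1. For yptm2, PRO4, LOC541810, arf1 and the genes most like crt2 they did not.

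The likeness of crt2 and bip2 was as high without the untreated arrays as with them. The bip2 signal at 24 h after water was 1849, 3647 and 3954, and at 48 h after ethephon 1847, 3135 and 2950, so that replicate 1 was low in both groups as it was for crt2. PDIL2-3 was low on the same arrays, with 1354 against 1987 and 1795, and 1279 against 1555 and 1693.

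**Figure D5:**
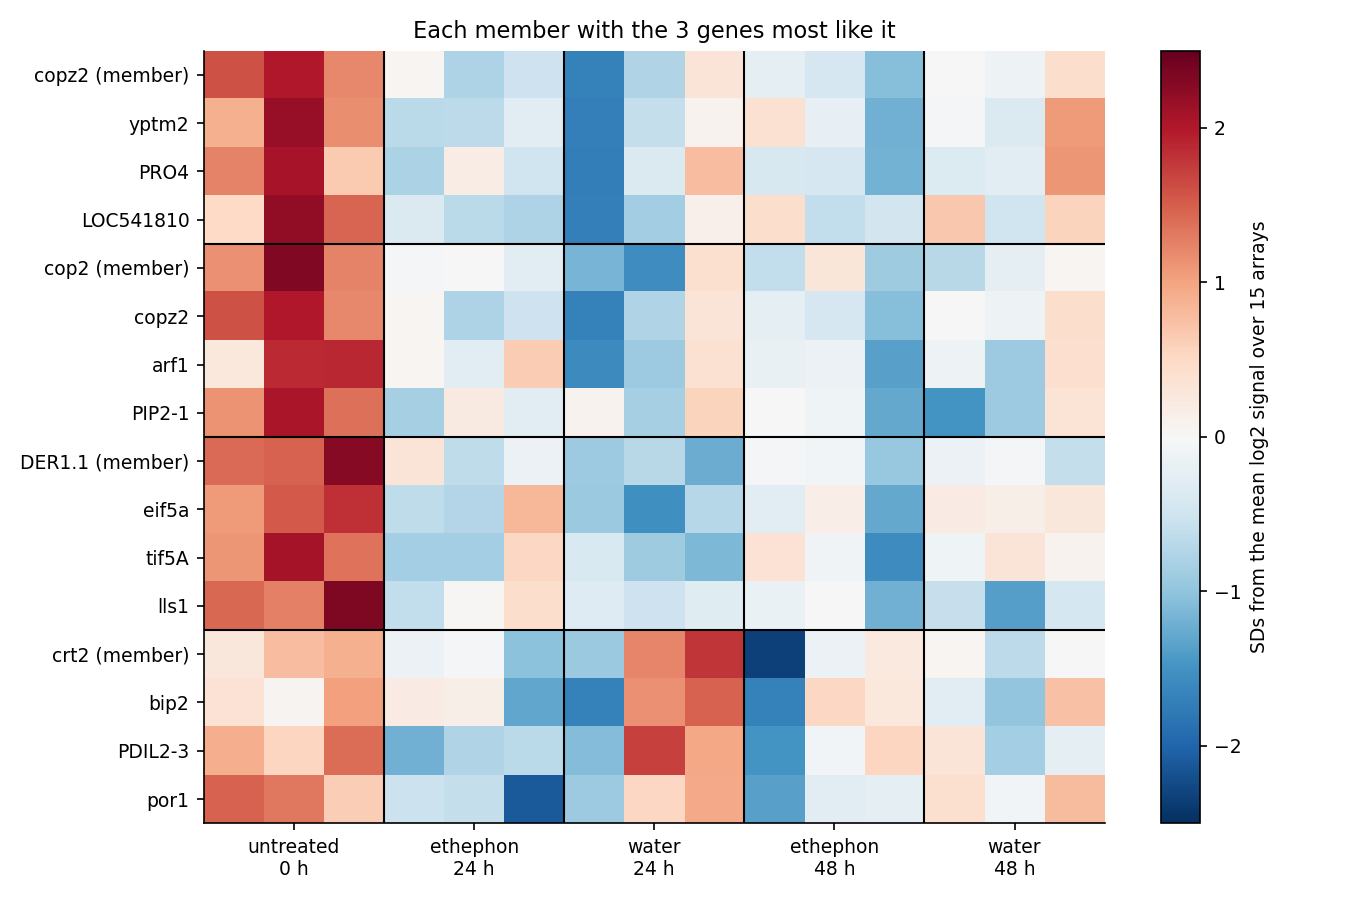
Log2 signals of copz2, cop2, DER1.1 and crt2 and of the 3 genes most like each, in SDs from the gene's mean over the 15 arrays (columns, replicates 1 to 3 within each group). Red is above and blue below the mean. Untreated columns lie above the mean in every block, that of crt2 included. The block of crt2 also changes between replicates within the 24 h water and 48 h ethephon groups.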

How the data were processed

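The deposited table held linear intensity values, MAS5 signals per the submitters' processing notes. For MAS5 neither the version nor the target of scaling was given in the sources used here. All 15 columns were used. Of 17734 probe sets 113 controls served only the 3'/5' index. Log2 signals of the 10573 probe sets with a mean signal at or above the 40th percentile (218.3) were fitted with 5 group means in limma 3.58.1 (R 4.3.3), with 10 residual and 2.62 prior degrees of freedom. The Benjamini-Hochberg method was applied over all kept probe sets per comparison, with a threshold of 0.05. The method was tested on simulated data. The labels describe separate biological replicates, so p-values describe pools of seedlings from 1 experiment. Precision is limited by how few arrays each group has.

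Gene names came from the platform annotation, updated through maize RefSeq (Zm-B73-REFERENCE-NAM-5.0), and 1452 probe sets had exactly 1 gene. The strongest probe set stood for a gene. Members and lists were chosen with earlier results of these data known, and CNX was added after the annotation was seen. Named were the strongest 2 genes of each list, any that passed, the other Derlins, chosen after their values were seen, and the 3 genes most like each member. Alternatives were an offset of 32, quantile normalization, filters at the 60th percentile or none, array weights, the index as a covariate, only the groups compared, the replicate number as a block, and each array left out.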

Additional observations from a re-analysis of the deposited data

How the results depend on the processing

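Without untreated arrays in the comparison no gene of the 4 passed under any setting. In the comparisons with untreated arrays copz2, cop2 and DER1.1 stayed below 0 in every setting, also with each array left out. These genes were chosen for lying below the untreated arrays, and their sprayed and untreated arrays did not overlap. Leaving out an array could therefore not change the sign, and the sign is no support for the difference. Array weights turned small differences of copz2 and cop2, to -0.0231 for copz2 in ethephon against water at 24 h, 0.10 for cop2 in ethephon against water at 48 h and 0.0189 for copz2 from 24 to 48 h of ethephon, and one of DER1.1 there to 0.0357. The index as a covariate turned cop2 to 0.0262 and the second crt2 probe set to 0.00853 in ethephon against water at 48 h, and moved that second probe set to -0.0163 at 24 h after ethephon against untreated. The cause was not tested.

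With 1 array left out the differences between ethephon and water ran, at 24 h, from -0.0554 to 0.227 for copz2, and at 48 h from -0.128 to 0.0342 for cop2, -0.0624 to 0.0477 for DER1.1, -0.227 to 0.0550 for crt2 and -0.298 to 0.104 for its second probe set. Those from 24 to 48 h of ethephon ran from -0.0966 to 0.0221 for copz2, -0.103 to 0.0238 for DER1.1, -0.182 to 0.10 for crt2 and -0.332 to 0.0837 for its second probe set, whose difference of ethephon responses ran from -0.00392 to 0.412.

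Counts of called probe sets depended more on the setting. For ethephon against water at 24 h array weights gave 169 in place of 0. Against untreated arrays, water at 24 h gave 182, with 326 under array weights, 13 with the index and 11 with only the compared arrays. Water at 48 h gave 84, with 189 under array weights and 6 with only the compared arrays. Ethephon at 24 h gave 586, with 937 without a filter, 1727 under array weights, 0 with the index (limma, lowest adjusted p = 0.0677) and 95 with only the compared arrays. Ethephon at 48 h gave 144, with 14 with the index and 10 with only the compared arrays. Leaving out 1 array gave 0 to 2 calls for ethephon against water at 24 h, 0 to 1 at 48 h, 0 to 1 for their difference, 0 to 2 between the water groups, 68 to 176 and 49 to 68 for water at 24 h and 48 h against untreated, and 113 to 647 and 46 to 147 for ethephon.

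The deviations of same-numbered arrays correlated at a median r of -0.05 (range -0.54 to 0.63, 10 of 30 pairs above r = 0.1). Of 15 arrays 4 were closest to their own number. The main fit did not pair arrays by number, and these values cannot show whether the numbers pair samples. The replicate block gave 96 calls for water at 24 h, 359 for ethephon at 24 h and 73 for ethephon at 48 h against untreated, and called none of the 4 genes in comparisons without untreated arrays.

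Of the other pathway genes CNX changed direction, with 0.0837 (quantile normalization) and 0.0145 (array weights) at 24 h after water, -0.0655 (index) at 48 h after water and 0.0392 (quantile normalization) at 48 h after ethephon, and so did DER2.2 at 48 h after water (-0.00238, quantile normalization). With the index yptm3 turned to 0.0732 at 24 h after ethephon, and DER2.1 to 0.200 at 24 h and 0.132 at 48 h after ethephon. With 1 array left out CNX ran from -0.133 to 0.0805 and from -0.0805 to 0.133 at 24 and 48 h after water and from -0.147 to 0.112 at 48 h after ethephon, DER2.2 from -0.149 to 0.257 at 48 h after water, and PDIL2-2 from -0.133 to 0.0148 at 48 h after water and from -0.200 to 0.00660 at 24 h after ethephon.

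The 3 arrays of each group limit what can be seen: for copz2, cop2 and DER1.1 intervals between ethephon and water were about as wide as the differences from untreated arrays, and for crt2 they were wider, the untreated group was collected at 1 time only and without spray, and the index differed between groups.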
